A study of Mus musculus with 24 samples.

Results

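The subject is a module of 35 genes that make, sense and move cholesterol and make fatty acids, followed across 6 groups of transfected leukaemia cells. The members were chosen by name, and the brightest array probe of each stood for its gene, out of 30139 gene names on the array. All 35 were found, and 34 passed the filter on dim probes. Scd1, a desaturase, was above background on 0 of 24 arrays and was not tested, whereas the other 34 were above background on all 24 arrays. By role they were 7 genes of the mevalonate steps, 11 that turn squalene precursors into cholesterol, 5 control genes, 3 transport genes and 9 fatty acid genes.

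The cells were DA1-3B, a mouse leukaemia line of strain C3H eOuJ that carries the Bcr-Abl oncogene in every group. They were transfected with plasmids for p65/RelA, a DNA-binding subunit of the transcription factor NF-kB. Each of 6 groups had 4 one-colour Agilent arrays: WT, with whole p65; D361E, with p65 that resists cleavage; p1-361, with the N-terminal piece; p363-549, with the C-terminal piece; p1-361+p363-549, with both fragments; and VOID, with the empty plasmid. The labels name no promoter, no time after transfection and no deletion of the cells' own Rela, and separate cultures within a group are not mentioned. The p-values therefore reflect only how these samples spread. The treatment protocol starts the C-terminal piece 1 residue earlier than its sample name does. Rela was read by 1 probe, which does not check the labels: its level was 0.36 to 0.49 above VOID in the 5 p65 groups, and was called in p1-361, p363-549 and both fragments.

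In mammalian cells cholesterol is built from acetyl-CoA through mevalonate, isoprenoids, squalene and lanosterol. When sterol in the endoplasmic reticulum is low, SCAP carries the SREBP transcription factors to the Golgi, where they are released to switch on the synthesis genes. INSIG proteins hold SCAP back when sterol is plentiful. Excess sterol gives oxysterols, which activate the LXR receptors, and these switch on the exporters ABCA1 and ABCG1. In macrophages and other blood cells both exporters pass cholesterol to lipoproteins.

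A level here is the log2 processed signal minus the 75th percentile of its own array, so 0 is that percentile, and a difference of 1 between groups is a doubling. Levels are compared for 1 probe across arrays and never between genes. Differences carry limma standard errors, and a gene was called when its Benjamini-Hochberg adjusted p over all 14988 tested genes (15234 without the 3 arrays described next) was under 0.05. The 75th percentile ran from 636 to 1214 intensity units over the 24 arrays, and 49.4% to 55.5% of spots were well above background. Of the blood markers Ptprc, Spi1, Csf2rb, Il3ra, Mpo and Kit, only Kit was above background on 0 arrays. The liver markers Alb, Apoa1 and Ttr were above background on 0 arrays, as were the fat markers Adipoq and Cfd. The remaining fat marker, Plin1, was above background on some arrays and was tested, with a mean level of -3.42 in VOID.

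In all, 3 arrays went against their labels, and each called difference of the module and of the pathway lists is given with and without them. Each array was correlated, across 200 genes, with the group means of the arrays from other sets of consecutive sample numbers. For p1-361 replicate 4, Pearson's r was -0.16 with p1-361 but 0.88 with p363-549. For p363-549 replicate 4 it was -0.45 with p363-549 but 0.98 with the both-fragment group. For both-fragment replicate 4 it was -0.09 with that label but 0.85 with p1-361. The remaining 21 arrays matched their labels best, with an r of 0.46 to 0.93. Of the genes in the module, 1 (Abcg1) was among those 200 genes. Since values chose these 3 arrays, leaving them out makes the spread smaller by construction.

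Promoters are shown for 4 genes on which the results turn: the 250 bases before the transcription start, from RefSeq on GRCm38.p6, which holds 27 of the 35 genes. Idi1 (chr13:8885356-8885605, plus strand) is the synthesis gene that was highest with both fragments. Hmgcs1 (chr13:119690101-119690350, plus strand) and Msmo1 (chr8:64733579-64733828, minus strand) are synthesis genes that followed the sets of sample numbers. Abca1 (chr4:53159896-53160145, minus strand) is an exporter that was lowest with both fragments. Capitals mark matches to the sterol regulatory element TCACNCCAC, the CCAAT box or the LXR direct repeat (2 GGTNA half-sites with 5 bases between them) on either strand, and to the NF-kB consensus, which none of the 4 held.
Idi1: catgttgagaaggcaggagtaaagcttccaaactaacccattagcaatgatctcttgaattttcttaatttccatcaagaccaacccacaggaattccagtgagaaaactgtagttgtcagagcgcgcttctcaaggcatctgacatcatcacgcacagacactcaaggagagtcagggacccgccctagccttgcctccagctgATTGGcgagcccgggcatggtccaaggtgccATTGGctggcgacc
Hmgcs1: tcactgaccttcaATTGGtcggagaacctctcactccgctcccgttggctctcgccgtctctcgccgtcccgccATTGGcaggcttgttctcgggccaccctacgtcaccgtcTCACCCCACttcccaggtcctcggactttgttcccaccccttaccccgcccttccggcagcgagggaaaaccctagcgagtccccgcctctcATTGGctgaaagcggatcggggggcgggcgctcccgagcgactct
Msmo1: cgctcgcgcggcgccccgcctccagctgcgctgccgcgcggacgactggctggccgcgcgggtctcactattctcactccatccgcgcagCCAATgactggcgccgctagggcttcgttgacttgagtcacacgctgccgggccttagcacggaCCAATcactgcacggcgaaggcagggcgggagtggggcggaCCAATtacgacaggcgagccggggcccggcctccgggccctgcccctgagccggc
Abca1: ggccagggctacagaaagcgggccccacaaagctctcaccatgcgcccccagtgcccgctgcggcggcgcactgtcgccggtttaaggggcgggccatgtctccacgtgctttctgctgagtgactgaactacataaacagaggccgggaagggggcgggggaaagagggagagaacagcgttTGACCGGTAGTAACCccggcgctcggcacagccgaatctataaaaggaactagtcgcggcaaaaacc

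The CCAAT box was in 21 of 36 promoters of the 27 genes (58.3%), against 33.8% of all 32851 promoters in the table. The sterol regulatory element was in 1 (Hmgcs1), against 1.05% of all promoters. The LXR repeat was in 3 (Abca1, Fasn and Srebf1), against 0.621% of all, and the NF-kB consensus in 3 (Ebp, Insig2 and Srebf1), against 5.00% of all. In Idi1 the CCAAT matches lie 45 and 14 bases before the start, read on the opposite strand, and in Abca1 the LXR repeat begins 67 bases before it. The sequences match letters only, and genes with more than 1 start count more than once.

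Abcg1, which exports cholesterol to high-density lipoprotein, gave the widest differences of the module. Its probe lies on chromosome 17, bases 31252580 to 31252639 of mm9. With both fragments its levels were -2.15, -2.23, -1.59 and -0.38, against 1.33, 1.70, 2.31 and 1.87 in VOID. WT arrays had 0.24, 0.82, 1.19 and 0.26, and D361E arrays had 0.60, 0.68, 1.10 and 0.45. The p1-361 arrays had -0.31, -0.03, 0.32 and 0.71, and the p363-549 arrays had 0.58, 0.88, 1.38 and -1.66. All 4 VOID arrays stood above every WT, D361E, p1-361 and both-fragment array, and they overlapped p363-549 at its replicate 3.

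Abcg1 fell by 3.39 ± 0.48 on the log2 scale (SE, n = 4 arrays per group) with both fragments relative to VOID, a 10.5-fold difference (adjusted p = 0.000247). It was called in all 39 alternative fits of this comparison, where it fell by 2.81 to 3.85. Relative to WT, the difference with both fragments was -2.22 ± 0.48 (adjusted p = 0.0279). Relative to D361E it was -2.29 ± 0.48 (adjusted p = 0.00941). With the 3 arrays left out these differences were -2.62 ± 0.28 (adjusted p = 4.41e-06) and -2.70 ± 0.28 (adjusted p = 1.85e-06). The call against WT was lost in 11 of 39 alternatives, among them leaving out any 1 WT array or replicate 1, 2 or 3 of both fragments (highest adjusted p 0.150). The call against D361E was lost without replicate 1 of both fragments (adjusted p = 0.0502) or without its replicate 2 (adjusted p = 0.0552). Abcg1 was also the 1 member of 34 called in the F test for any difference among the 6 groups, which called 2.84% of all genes (adjusted p = 0.00435). On the 2 slides with arrays of both fragments and of VOID, the Abcg1 difference was -3.45 and -3.85. From set to set of sample numbers it was -3.49, -3.93, -3.90 and -2.25, the last from the set with the 3 arrays.

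In the other 4 p65 groups the mean of Abcg1 lay below VOID, and over all 24 arrays none of these differences passed the test. The differences from VOID were -1.17 in WT (adjusted p = 0.690), -1.10 in D361E (adjusted p = 0.679), -1.63 in p1-361 (adjusted p = 0.165) and -1.51 in p363-549 (adjusted p = 0.270), each with an SE of 0.48. Without the 3 arrays, Abcg1 was called in WT (-1.17 ± 0.26, adjusted p = 0.0243), D361E (-1.10 ± 0.26, adjusted p = 0.0319) and p1-361 (-1.81 ± 0.28, adjusted p = 0.000611). It was not called in p363-549 (-0.85 ± 0.28, adjusted p = 0.230). Abcg1 was itself among the genes used to find the 3 arrays, so the smaller SE comes partly by construction. The WT and D361E differences were unchanged, and only their SE was smaller. In the same fit Abcg1 fell by 3.79 ± 0.28 with both fragments (adjusted p = 1.67e-08). These comparisons share the VOID arrays, so 1 set of control values stands in each of them.

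Abca1, the exporter that loads cholesterol onto lipid-poor apolipoprotein, ran lower too. Its probe lies on chromosome 4, bases 53043944 to 53044003 of mm9. With both fragments its levels were -3.87, -3.70, -4.10 and -2.79, against -2.38, -2.15, -2.00 and -2.08 in VOID. WT arrays had -3.10, -2.65, -2.74 and -2.36, and D361E arrays had -3.13, -3.13, -2.96 and -3.22. The p1-361 arrays had -2.72, -2.86, -2.63 and -2.19, and the p363-549 arrays had -2.70, -2.57, -2.05 and -4.30. The VOID arrays stood above all arrays of both fragments and of D361E, and overlapped the other groups.

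With both fragments, Abca1 fell by 1.46 ± 0.33 relative to VOID on the log2 scale (SE, 4 arrays each), a 2.75-fold difference (adjusted p = 0.0133). The call was lost without replicate 1 of both fragments (adjusted p = 0.0554) and after normexp background correction, where it fell by 0.69 (adjusted p = 0.389). Without the 3 arrays it fell by 1.73 ± 0.18 with both fragments relative to VOID (adjusted p = 1.32e-06), and by 0.96 ± 0.16 in D361E relative to VOID (adjusted p = 0.00214). In all 24 arrays the D361E difference of -0.96 ± 0.33 was not called (adjusted p = 0.376). Relative to WT, Abca1 differed by -0.90 ± 0.33 with both fragments over all arrays (adjusted p = 0.261), and without the 3 arrays it fell by 1.18 ± 0.18 (adjusted p = 0.000219).

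Stard4, which carries cholesterol through the cytosol and is the remaining transport gene, differed from VOID by 0.08 ± 0.44 with both fragments (adjusted p = 0.936). Of 34 genes in the module, the arrays of both fragments and VOID did not overlap in 2, Abca1 and Abcg1, which is 5.88% beside 10.1% of all genes.

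**Figure D1:**
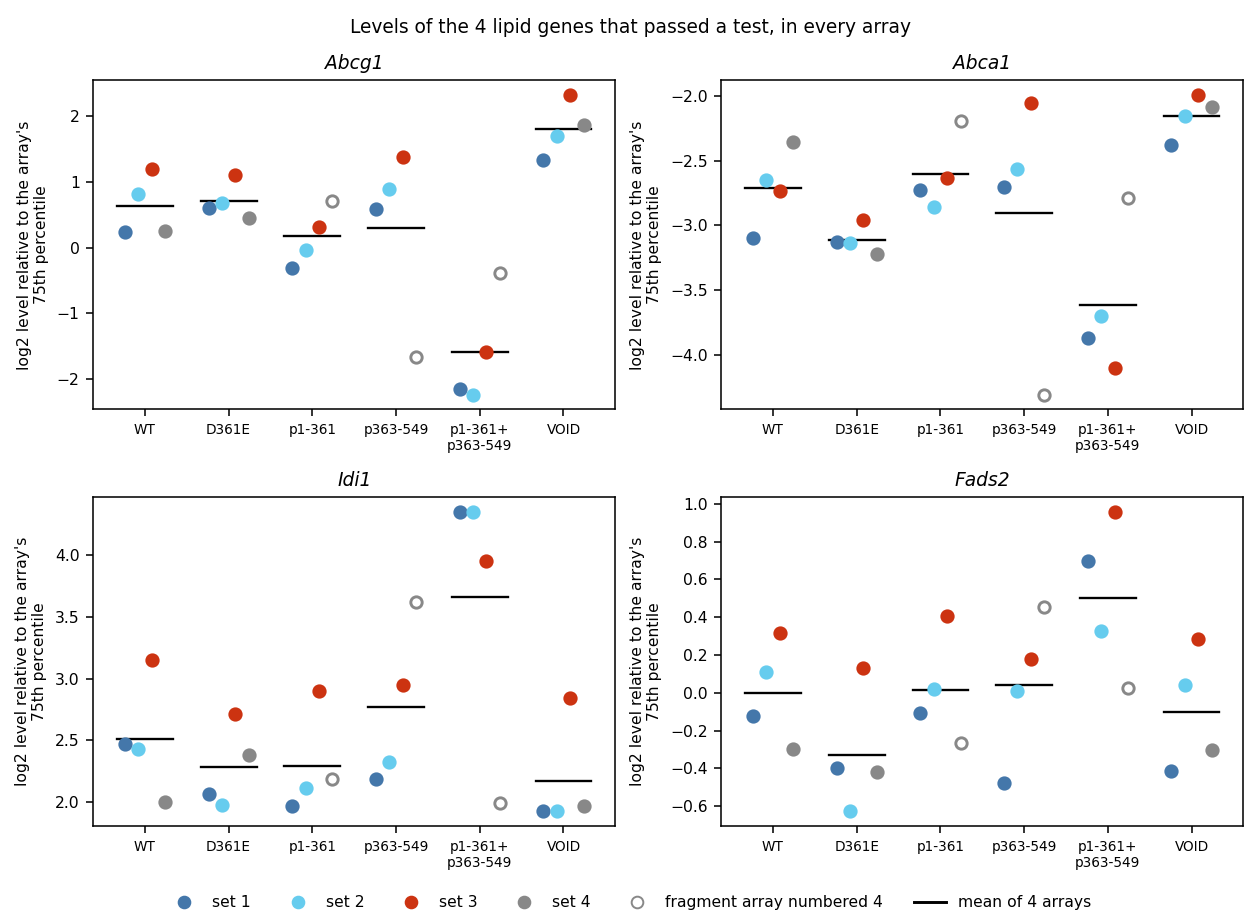
Level of Abcg1, Abca1, Idi1 and Fads2 (log2 processed signal minus the array's 75th percentile) in every array of the 6 groups. Colours mark the set of sample numbers, open circles the 3 fragment arrays numbered 4, and bars the mean of 4 arrays. With both fragments, the 3 filled circles of Abcg1 lie between -2.23 and -1.59, below every VOID array, and the open circle of p363-549 lies at -1.66.

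Idi1, isopentenyl-diphosphate isomerase, which makes the activated isoprene unit of the pathway, was the 1 sterol synthesis gene called. Its probe lies on chromosome 13, bases 8891524 to 8891583 of mm9, and its promoter is the first shown above. With both fragments its levels were 4.35, 4.35, 3.95 and 1.99, against 1.92, 1.93, 2.85 and 1.97 in VOID. WT arrays had 2.47, 2.43, 3.15 and 2.00, D361E arrays 2.07, 1.98, 2.71 and 2.38, p1-361 arrays 1.97, 2.11, 2.90 and 2.18, and p363-549 arrays 2.18, 2.32, 2.95 and 3.62. The first 3 both-fragment arrays were above all other arrays of the study, and replicate 4 was level with VOID. Replicate 4 of p363-549 was the next highest array.

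With both fragments, Idi1 rose by 1.49 ± 0.42 relative to VOID on the log2 scale (SE, 4 arrays each), a 2.82-fold difference (adjusted p = 0.0461). The call was close to the threshold: it held in 13 of 39 alternatives, with adjusted p from 1.02e-05 to 0.190. In fits that left out 1 array it held in 6 of 24, with values from 1.26 to 2.05, and it was lost in 18. Without the 3 arrays it rose by 2.05 ± 0.30 relative to VOID (adjusted p = 0.000118). On the 2 slides with arrays of both fragments and of VOID, the difference was 1.98 and 2.42. From set to set of sample numbers it was 2.43, 2.42, 1.11 and 0.02, the last from the set with the 3 arrays.

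The other 6 mevalonate genes were not called in this comparison. Mvk, mevalonate kinase, had levels of 3.25, 2.98, 3.27 and 2.36 with both fragments, against 2.69, 2.51, 2.78 and 2.51 in VOID. WT arrays had 3.10, 2.96, 2.72 and 2.71, D361E arrays 2.78, 2.75, 2.94 and 2.96, p1-361 arrays 2.49, 2.49, 2.70 and 2.70, and p363-549 arrays 2.71, 2.57, 2.37 and 2.95. The first 3 both-fragment arrays were above every VOID array. The Mvk difference from VOID with both fragments, 0.35 ± 0.17, did not pass (adjusted p = 0.276), and without the 3 arrays it rose by 0.55 ± 0.13 (adjusted p = 0.0116). Hmgcs1, which makes the substrate of the committed step, differed by 0.62 ± 0.55, and Fdps, which makes farnesyl diphosphate, by 0.44 ± 0.30. Pmvk and Mvd, the later mevalonate enzymes, differed by 0.15 and 0.06, and Acat2, the thiolase at the start, by -0.17.

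None of the 11 genes from squalene to cholesterol was called with both fragments relative to VOID by limma, where 0 had an unadjusted p under 0.05. All 11 differences were positive in the main fit. That of Tm7sf2 turned negative in 6 of 39 alternatives, among them normexp correction, the percentile over detected probes and the mean of probes. That of Msmo1 turned negative in 2. The second Tm7sf2 probe differed by -0.18 ± 0.15. In the main fit the 11 differences had a median of 0.39 beside -0.01 over all tested genes. They ran from 0.03 in Tm7sf2, a sterol reductase, to 0.51 in Cyp51, the lanosterol demethylase. Nsdhl, which acts with Msmo1 in removing sterol methyl groups, had levels of 0.47, 0.45, 0.69 and -0.57 with both fragments, against -0.57, 0.12, 0.33 and -0.45 in VOID. WT arrays had -0.23, -0.02, 0.31 and -0.54, D361E arrays -0.58, -0.75, -0.09 and -0.43, p1-361 arrays -0.54, -0.42, 0.24 and -0.53, and p363-549 arrays -0.78, -0.26, 0.04 and -0.02. The first 3 both-fragment arrays were above all other arrays, and replicate 4 was level with the lowest VOID array. Ebp, a sterol isomerase, had 3.96, 3.96, 3.71 and 3.60, against 3.89, 3.57, 3.47 and 3.70 in VOID. WT arrays had 3.76, 3.58, 3.23 and 3.64, D361E arrays 3.52, 3.67, 3.33 and 4.06, p1-361 arrays 3.36, 3.50, 3.21 and 3.58, and p363-549 arrays 3.65, 3.52, 3.25 and 3.77. Both fragments overlapped VOID in Ebp. Sc5d, the desaturase near the end of the pathway, differed by 0.47 ± 0.24 (adjusted p = 0.298).

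The 5 control genes gave no call in this comparison by limma, and 0 had an unadjusted p under 0.05. Srebf2, which encodes the SREBP of sterol synthesis, differed from VOID by 0.50 ± 0.40 with both fragments. Insig1 and Insig2 differed by 0.26 ± 0.58 and 0.27 ± 0.51, and Scap by 0.01 ± 0.26. The second Insig2 probe had the opposite sign (-0.28 ± 0.58). Srebf1, which encodes the SREBP of fatty acid synthesis, had -2.00, -2.23, -1.36 and -1.93 with both fragments, against -1.90, -1.94, -1.64 and -2.49 in VOID. WT arrays had -2.20, -2.08, -1.90 and -2.35, D361E arrays -1.99, -2.53, -2.09 and -2.46, p1-361 arrays -2.00, -1.72, -1.77 and -2.17, and p363-549 arrays -1.54, -1.81, -1.91 and -1.72. With both fragments Srebf1 overlapped VOID, with a difference of 0.11 ± 0.19.

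Among the 8 fatty acid genes tested, 0 were called with both fragments relative to VOID by limma, and 1 (Fads2) had an unadjusted p under 0.05. Fads2, a desaturase of polyunsaturated fatty acids, had levels of 0.70, 0.33, 0.96 and 0.03 with both fragments. The D361E arrays had -0.40, -0.63, 0.13 and -0.42, and VOID had -0.42, 0.04, 0.28 and -0.30. WT arrays had -0.12, 0.11, 0.32 and -0.30, p1-361 arrays -0.10, 0.02, 0.40 and -0.27, and p363-549 arrays -0.47, 0.01, 0.18 and 0.46. The first 3 both-fragment arrays were above all D361E arrays and replicate 4 lay within their range. Fads2 rose by 0.83 ± 0.23 with both fragments relative to D361E (adjusted p = 0.0479), a call that held in 15 of 39 alternatives (adjusted p from 0.000216 to 0.175). It rose by 0.99 ± 0.23 relative to D361E without the 3 arrays (adjusted p = 0.00812). Leaving out 1 array lost it in 15 of 24 fits, with values of 0.68 to 0.99, and on the 3 slides shared by these groups the difference was 1.36, 0.75 and 0.57. Those slides pair arrays of different sets of sample numbers and hold no replicate 4 of both fragments. From set to set the difference was 1.10, 0.96, 0.83 and 0.44, the last from the set with the 3 arrays. Relative to VOID, Fads2 differed by 0.60 ± 0.23 (adjusted p = 0.162), and by 0.76 ± 0.23 without the 3 arrays, where it was called (adjusted p = 0.0426). The second Fads2 probe differed from VOID by 0.60 ± 0.25 and from D361E by 0.79 ± 0.25.

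The core lipogenic enzymes ran the other way in part. Fasn, fatty acid synthase, had levels of -1.31, -1.73, -2.09 and -1.23 in WT, -0.95, -1.11, -1.82 and -1.49 with both fragments, and -0.61, -1.01, -1.44 and -0.85 in VOID. The groups overlapped across sets, and D361E had -1.23, -1.53, -1.85 and -1.31, p1-361 -1.17, -1.58, -1.98 and -1.07, and p363-549 -0.93, -1.24, -1.87 and -1.71. Within every set the arrays of all p65 groups were below the VOID array. In WT, Fasn differed from VOID by -0.61 ± 0.26 (adjusted p = 0.733), and with the set as a fixed block it was called (adjusted p = 0.0324). Acaca, acetyl-CoA carboxylase, had 2.69, 2.50, 2.59 and 2.72 in WT, against 3.26, 2.96, 2.86 and 2.97 in VOID. D361E arrays had 2.70, 2.60, 2.62 and 3.00, p1-361 arrays 2.63, 2.45, 2.50 and 3.01, p363-549 arrays 3.04, 2.79, 2.68 and 2.83, and both-fragment arrays 3.13, 3.17, 2.60 and 2.68. WT and VOID did not overlap in Acaca, and its difference of -0.39 ± 0.15 did not pass (adjusted p = 0.637).

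Me1, malic enzyme, which supplies NADPH for synthesis, followed another pattern. It had 0.78, 0.68, 0.99 and 0.49 in D361E arrays, against 1.31, 1.49, 1.77 and 1.21 in WT arrays, with no overlap. The difference of -0.71 ± 0.26 in D361E relative to WT was not called (adjusted p = 0.9999). With both fragments Me1 had 0.63, 0.51, 0.87 and 1.25, against 0.85, 0.98, 1.74 and 0.96 in VOID. The p1-361 arrays had 1.76, 1.71, 1.91 and 0.42, and the p363-549 arrays had 1.01, 1.00, 1.00 and 0.71. Without the 3 arrays, Me1 fell by 0.78 ± 0.19 with both fragments relative to WT (adjusted p = 0.0188). All 3 Me1 probes gave negative differences in D361E relative to WT, from -0.73 to -0.62. Acly, which makes cytosolic acetyl-CoA, differed from VOID by 0.42 in p363-549 (adjusted p = 0.821), with levels of 4.61, 4.38, 4.73 and 4.42 there and 4.14, 3.90, 4.62 and 3.81 in VOID. WT arrays had 4.23, 4.22, 4.51 and 3.68, D361E arrays 4.05, 3.76, 4.10 and 3.68, p1-361 arrays 4.02, 4.09, 4.51 and 3.91, and both-fragment arrays 4.11, 4.08, 4.75 and 3.76. The p363-549 array was above the VOID array in all 4 sets.

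**Figure D2:**
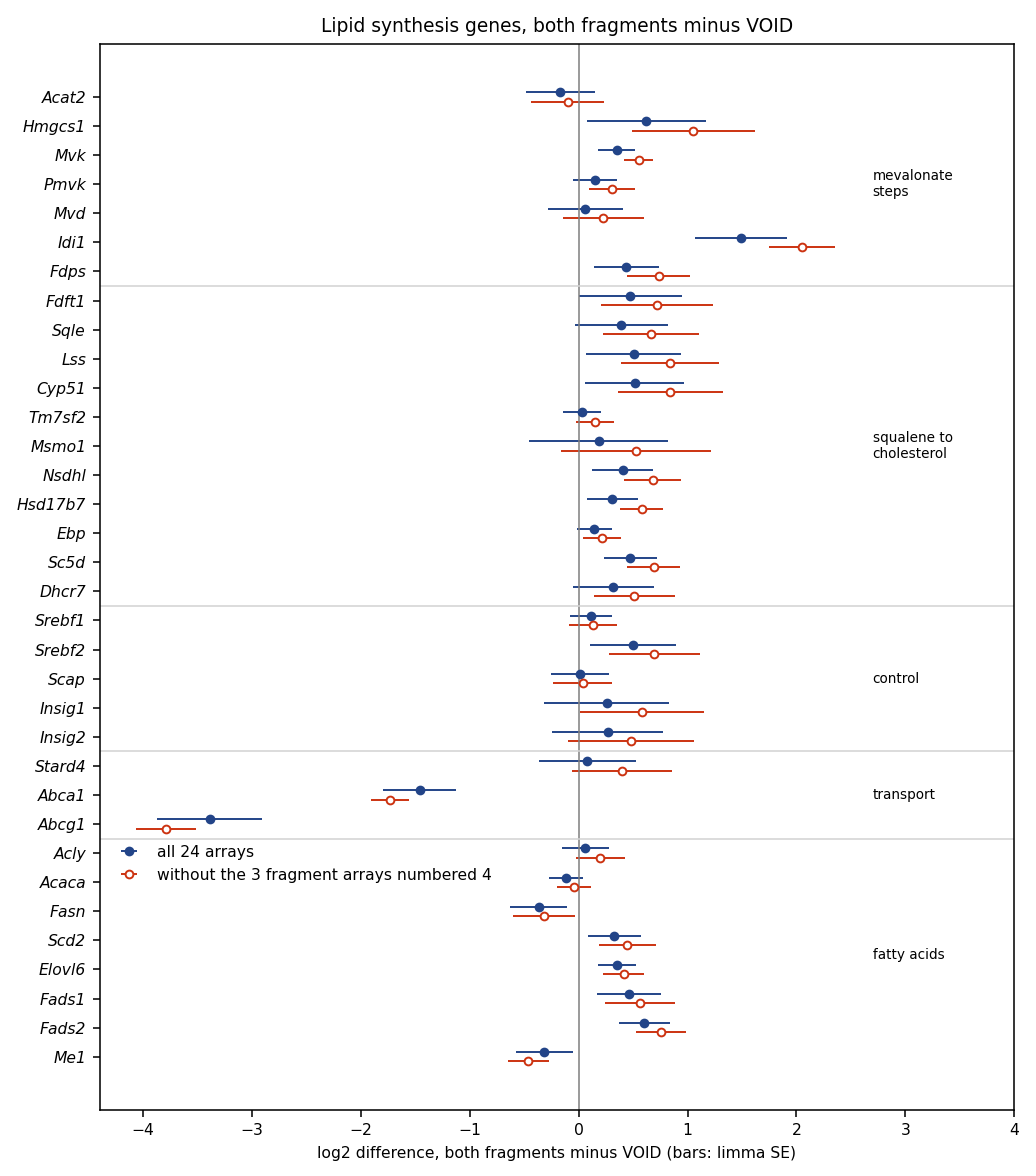
Log2 difference, both fragments minus VOID, of the 34 tested genes by role, with limma SE as bars, over all 24 arrays (filled) and without the 3 fragment arrays numbered 4 (open). Abcg1 at -3.39 and Abca1 at -1.46 lie left of the others, and Idi1 at 1.49 lies right of them.

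Over the module, 3 of 34 genes were called with both fragments relative to VOID, beside 4.46% of all genes. Of these, 1 rose (Idi1), beside 1.95% of all genes called higher, and 2 fell (Abca1 and Abcg1), beside 2.51% called lower. Of so small a number nothing is read about the module as a whole. The median difference was 0.29, beside -0.01 over all genes, and 28 of 34 differences were positive. Relative to WT, 1 of 34 was called with both fragments (Abcg1, lower), beside 1.03% of all genes. Relative to D361E, 2 of 34 were called with both fragments, beside 3.9% of all genes: Fads2 higher, beside 1.35%, and Abcg1 lower, beside 2.55%. These comparisons share the both-fragment arrays.

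The single constructs gave no call in the module. In WT relative to VOID, 0 of 34 were called by limma (3 with an unadjusted p under 0.05), beside 0.487% of all genes. In D361E it was 0 (2 unadjusted) beside 0.661%, in p1-361 it was 0 (2 unadjusted) beside 0.721%, and in p363-549 it was 0 (2 unadjusted) beside 0.58%. Relative to WT, 0 of 34 were called in D361E (1 unadjusted, Me1) beside 0.0801% of all genes, in p1-361 (0 unadjusted) beside 0.127%, and in p363-549 (0 unadjusted) beside 0.147%. Between p1-361 and p363-549, 0 were called (0 unadjusted), beside 0.0% of all genes. The additivity of the fragments, which is the both-fragment difference from VOID less those of each fragment, gave 0 calls (1 unadjusted, Ebp) beside 0.214%. The median difference of the 34 genes was 0.13 in WT, -0.09 in D361E, 0.03 in p1-361 and 0.13 in p363-549 relative to VOID. In D361E relative to WT it was -0.24, with 28 of 34 differences negative beside a median of 0.03 over all genes. Set by set, 12 genes were lower in D361E in all 4 sets, beside 9.99% of all genes. In WT relative to VOID, 14 were higher in all 4 sets, beside 13.7%, and 5 lower, beside 15.6%. The shared WT arrays stand in both of these counts.

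Without the 3 arrays more of the module was called, as was more of the array. With both fragments relative to VOID, 5 of 34 were called (Mvk, Fads2 and Idi1 higher, Abca1 and Abcg1 lower), beside 9.73% of all genes. Relative to WT, 4 were called (Idi1 higher, and Me1, Abca1 and Abcg1 lower), beside 5.7%. Relative to D361E, 6 were called (Hsd17b7, Nsdhl, Fads2 and Idi1 higher, and Abca1 and Abcg1 lower), beside 10.1%. In this fit Nsdhl rose by 1.00 ± 0.26 relative to D361E (adjusted p = 0.0193), and Hsd17b7, the sterol ketoreductase, by 0.69 ± 0.20 (adjusted p = 0.0296). For WT 1 was called relative to VOID (Abcg1), beside 1.23%, for D361E 2 (Abca1 and Abcg1), beside 1.6%, and for p1-361 1 (Abcg1), beside 2.72%. The F test called 5 of 34, beside 10.1% of all genes, and the additivity of the fragments 5, beside 10.8%.

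The additivity calls without the 3 arrays were Idi1, Hsd17b7 and Mvk above the sum of the single fragments, and Me1 and Abca1 below it. Idi1 with both fragments exceeded the sum of the single-fragment differences by 1.58 ± 0.44 (adjusted p = 0.0296), and Abca1 lay 0.86 below it (-0.86 ± 0.26, adjusted p = 0.0390). Abcg1 deviated by -1.13 ± 0.41, which was not called (adjusted p = 0.0775). In all 24 arrays, none of these deviations was called.

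A pattern shared by most synthesis genes followed the order of the samples. The sample titles number the arrays, and each run of 6 consecutive numbers holds 1 array of every group, giving 4 sets. The labels do not say what a set stands for in culture, extraction or hybridisation. Among the 4 sets, 25 of 34 genes differed in an F test added after the data were seen, beside 58.6% of all genes. The third set was above the mean of the others in 22 of these, beside 30.4% of all genes called with the third set higher. The 34 genes had a median difference of 0.59 between the third set and the others, beside 0.08 over all tested genes.

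Msmo1, the methylsterol oxidase whose promoter is shown above, had levels of 5.54 to 6.07 (median 6.01) in the 6 arrays of the third set, against 3.59 to 4.74 (median 4.14) in the other 18 arrays. Hmgcs1, which carries the sterol regulatory element, had 4.48 to 5.55 (median 4.85) in the third set, against 2.87 to 4.36 (median 3.33). Insig2 had 1.99 to 2.65 (median 2.34) in the third set, against 0.36 to 1.33 (median 0.90). In all 3 genes every array of the third set was above every other array, and the same held for 9 of the 34 genes in all, beside 4.01% of all genes: also Mvd, Fdft1, Sqle, Cyp51, Srebf2 and Stard4. The differences of the third set from the others were 1.84 ± 0.12 for Msmo1, 1.48 ± 0.15 for Hmgcs1 and 1.49 ± 0.09 for Insig2 (log2, limma SE, 6 arrays against 18).

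From squalene to cholesterol, 10 of 11 genes had their highest mean in the third set and the median difference was 0.90. The mevalonate genes had a median of 0.68 and the control genes one of 1.00. The fatty acid genes had a median of 0.43, and Fasn ran the other way at -0.62 ± 0.09, with Scap at -0.57 ± 0.12 and Ebp at -0.32 ± 0.08. The third set was high in every group: its VOID array had a median deviation of 0.61 over the 18 sterol synthesis genes, and its 6 arrays ran from 0.31 (D361E) to 0.98 (both fragments). Abca1 (0.14 ± 0.23), Abcg1 (0.60 ± 0.31) and Idi1 (0.63 ± 0.26) were not called among the sets, with adjusted p of 0.892, 0.350 and 0.201. The 75th percentile of the array signal was 636 to 899 in the third set, and its part in the set difference was not tested.

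**Figure D3:**
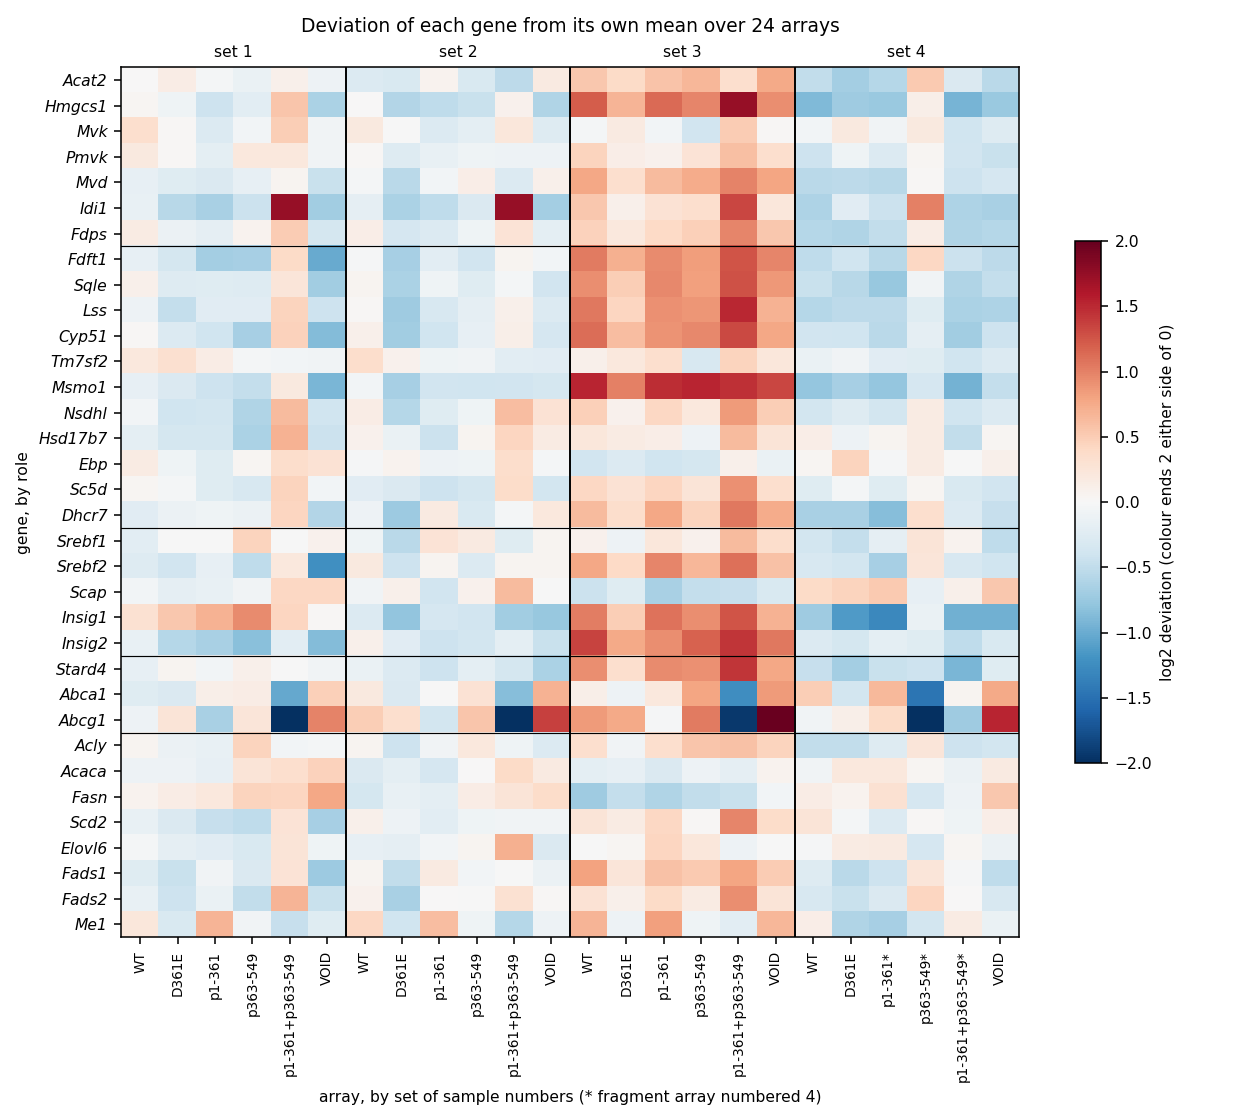
Log2 deviation of each of the 34 genes from its own mean over 24 arrays, in columns ordered by set and, within a set, WT, D361E, p1-361, p363-549, both fragments and VOID. Rows run by role, and asterisks mark the 3 fragment arrays numbered 4. The third set is red for most synthesis genes, and Abcg1 and Abca1 are blue with both fragments in the first 3 sets and in the p363-549 array of the fourth set.

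Because every set holds 1 array per group, each both-fragment array can be set against the VOID array of its own set. In the first 3 sets, 21 of 34 genes were higher with both fragments in every set, beside 25.8% of all genes, and 4 were lower in every set (Abca1, Abcg1, Fasn and Me1), beside 24.7%. Over all 4 sets 7 were higher, beside 17.6%, and 3 lower, beside 16.9%. In p363-549 relative to WT in the first 3 sets, 5 were higher, beside 27.3% of all genes, and 18 lower, beside 16.6%. In p1-361 relative to WT, 4 were higher, beside 22.7%, and 17 lower, beside 16.8%. The median deviation of the 18 sterol synthesis genes was 0.44, 0.09, 0.98 and -0.41 with both fragments in sets 1 to 4, against -0.42, -0.21, 0.61 and -0.45 in VOID. WT had 0.02, 0.02, 0.54 and -0.47, so it was above VOID in the first and second sets and close to it in the others.

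With the set as a fixed block, 7 of 34 genes were called with both fragments relative to VOID, beside 16.1% of all genes: Idi1, Fads1, Fads2, Lss and Sc5d higher, and Abca1 and Abcg1 lower. With the set as a block and the 3 arrays left out, 19 of 34 were called, beside 33.6% of all genes. Of these, 16 rose, beside 17.7% of all genes called higher, and 3 fell (Abca1, Abcg1 and Me1), beside 15.8% called lower. The genes that rose included 4 of 7 mevalonate genes (Hmgcs1, Mvk, Idi1 and Fdps) and 7 of 11 from squalene to cholesterol. Among the latter, Cyp51 rose by 0.73 ± 0.17 (adjusted p = 0.00542), Lss, lanosterol synthase, by 0.68 ± 0.12 (adjusted p = 0.000822) and Sqle, squalene epoxidase, by 0.53 ± 0.14 (adjusted p = 0.00975). Srebf2 rose by 0.61 ± 0.19 (adjusted p = 0.0229) and Hmgcs1 by 0.83 ± 0.16 (adjusted p = 0.00113). In this fit the median of the 34 genes was 0.37, beside -0.01 over all genes; this fit was chosen after the data were seen.

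**Figure D4:**
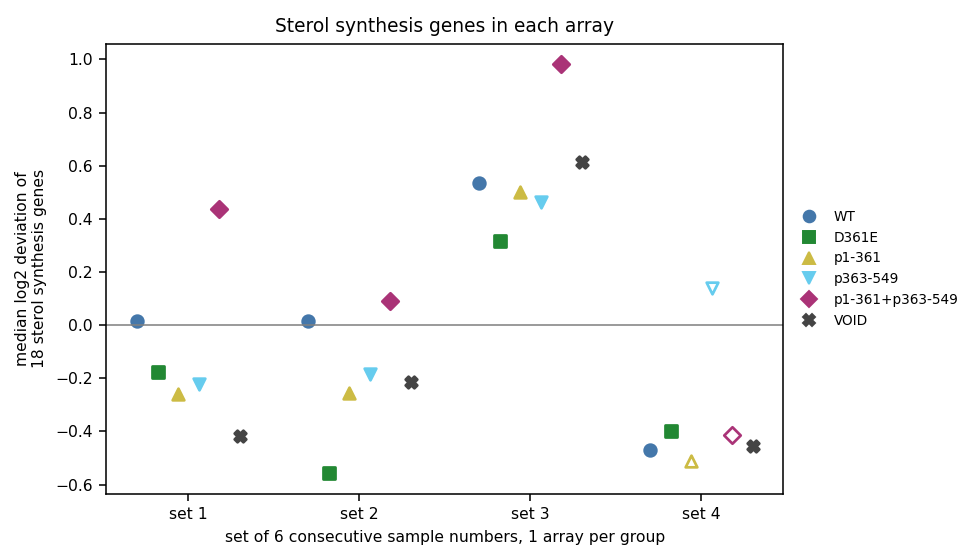
Median log2 deviation of 18 sterol synthesis genes (mevalonate steps and squalene to cholesterol) from their own means, for each array by set and group. Open symbols are the 3 fragment arrays numbered 4. All 6 arrays of the third set are at 0.31 or higher, and in the first 3 sets the both-fragment array is the highest of its set.

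Further genes of the pathway came from lists of sterol and isoprenoid enzymes (10 genes), sterol handling (18 of 20 tested) and fatty acid metabolism (23 of 25 tested). Over the 12 comparisons, 3 (Cyb5r3, Dhdds and Fdx1), 2 (Gpr183 and Lipa) and 0 of them were called in any, beside 6.82% of all genes called in any. Fdx1 is ferredoxin, an electron donor for mitochondrial steroid enzymes. Its levels were 4.45, 4.57, 4.30 and 4.76 in D361E and 4.96, 4.95, 5.12 and 3.94 with both fragments, against 3.12, 2.74, 2.89 and 2.88 in VOID. WT arrays had 4.41, 4.15, 4.06 and 3.97, also above every VOID array. The p1-361 arrays had 4.19, 3.89, 4.05 and 3.03, and the p363-549 arrays had 3.15, 2.89, 3.06 and 4.82. Fdx1 rose by 1.61 ± 0.33 in D361E relative to VOID (adjusted p = 0.0163). With both fragments it rose by 1.84 ± 0.33 (adjusted p = 0.00213), and without the 3 arrays by 2.10 ± 0.14 (adjusted p = 4.54e-09). In D361E it rose by 1.61 ± 0.13 in that fit (adjusted p = 6.54e-07). Gpr183, a receptor for oxysterols, was well above background on 1 of 4 WT arrays, 3 of 4 D361E arrays, 0 of 4 arrays of each fragment group and 4 of 4 VOID arrays. It entered the test only through VOID, where it is high, so its calls are not read as a result. As a description, it was at least 3.69-fold lower with both fragments than in VOID. The bound is taken against the lowest signal that counted as well above background on each array.

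Relative to D361E, both fragments also had higher Cyb5r3, a reductase that feeds electrons to lipid enzymes (0.78 ± 0.20, adjusted p = 0.0311), and higher Dhdds, which makes dolichol precursors (0.53 ± 0.12, adjusted p = 0.0137). Dhdds was not particular to both fragments: it ran from 0.75 to 1.19 there, 0.77 to 0.97 in p1-361 and 0.68 to 0.96 in p363-549. It was 0.52 to 0.78 in WT, 0.29 to 0.70 in VOID and 0.26 to 0.44 in D361E. The Cyb5r3 difference was 0.71 ± 0.14 without the 3 arrays (adjusted p = 0.00303), and that of Dhdds 0.43 ± 0.12 (adjusted p = 0.0220). Lipa, the lysosomal acid lipase that frees cholesterol from esters, fell by 0.85 ± 0.21 with both fragments relative to D361E (adjusted p = 0.0228), and by 0.94 ± 0.19 without the 3 arrays (adjusted p = 0.00335). Without the 3 arrays, 4 of the 10 sterol and isoprenoid enzymes rose with both fragments relative to VOID, beside 4.79% of all genes called higher. Besides Fdx1 they were Por, the reductase that feeds electrons to microsomal P450 enzymes (1.10 ± 0.19, adjusted p = 0.000722), Cyb5r3 (0.53 ± 0.14, adjusted p = 0.0245) and Tmem97, a sterol-binding membrane protein (0.58 ± 0.18, adjusted p = 0.0495). The lists were chosen with earlier results of these data known, so nothing is read from this share about the list.

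Markers of mast cells and basophils were low with both fragments, where the exporters were lowest. The erythroid marker Hba-a1 was low there too, but its mean was lowest in WT. The summed linear level of Cpa3, Fcer1a and Mcpt8, all 3 of which were above background on some arrays, was 0.0253 to 0.362 times the 75th percentile with both fragments, against 1.96 to 5.03 in VOID. It was 1.67 to 3.16 in WT, 0.403 to 0.585 in D361E, 0.445 to 1.01 in p1-361 and 0.0505 to 1.42 in p363-549. The WT range of this sum overlapped VOID, as did Cpa3, which differed by -0.24 in WT. The other markers of the list did not overlap there. Fcer1a was called lower in WT (-3.37 ± 0.66, adjusted p = 0.0138), and Mcpt8 differed by -0.95 and was not called. Fcer1a was called lower in every other p65 group too, with an adjusted p of 0.00675 in D361E. Without the 3 arrays the both-fragment range of the sum was 0.0253 to 0.0394, close to background. In its replicate 1, Cpa3, Fcer1a and Mcpt8 were at log2 levels of -6.34, -7.25 and -7.28. The lowest signal that counted as well above background on that array was -5.22, so no fold is read from this range. Of 3 erythroid markers, 2 were on the array and above background on some arrays. Their sum was almost wholly the globin gene Hba-a1, which fell by 1.69 ± 0.42 with both fragments relative to VOID (adjusted p = 0.0239). In WT, Hba-a1 fell by 2.50 ± 0.42 relative to VOID (adjusted p = 0.00338). The sum was 9.27 to 16.7 with both fragments and 4.05 to 14.9 in WT, against 23.6 to 69.0 in VOID, and neither of these groups overlapped VOID. It was 13.0 to 40.2 in D361E, 19.7 to 28.9 in p1-361 and 11.3 to 44.3 in p363-549, each overlapping VOID.

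The summed blood markers were 31.0 to 47.3 with both fragments, against 57.6 to 79.1 in VOID. Of their tested genes only Csf2rb, a receptor subunit for interleukin-3 and related cytokines, was called (-1.13 ± 0.21, adjusted p = 0.00234), while Ptprc differed by -0.09, Spi1 by -0.52 and Il3ra by -0.16. The summed macrophage markers (Adgre1, Cd68, Csf1r and Lyz2, 4 of 4 above background) were 1.02 to 3.49 with both fragments, against 1.57 to 3.71 in VOID, and overlapped. Within that list Lyz2 was well above background on 3 of 4 both-fragment arrays, against 0 of 4 VOID arrays. It entered the test only through other p65 groups, where it is high. Its calls above VOID, with both fragments and in WT, p1-361 and p363-549, are therefore not read as a result, and no fold is given. Csf1r differed by -0.17, Cd68 by -0.59 and Adgre1 by -2.50 (adjusted p = 0.0803), and none of these 3 was called. In bulk RNA, fewer cells of a type and less RNA per cell cannot be told apart, and the part of these markers in the Abcg1 and Abca1 differences was not tested.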

How the data were processed

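RNA of 24 samples was hybridised in 1 colour to Agilent arrays, 4 to a slide on 6 slides, with several groups per slide. Scans were read by the authors in Agilent Feature Extraction 10.7.3.1, per the file headers, which record background subtraction. The deposited unit is the processed intensity of each spot, with no scaling from array to array, and the series-wide table repeats it (largest difference 0). Probe positions are those of the file headers, build mm9. Here, 185 to 312 uneven spots per array were left out, none was saturated, and log2 intensity minus the array's 75th percentile was used.

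The filter kept 19517 probes that every array of some group measured well above background, and the brightest stood for each of 14988 genes. Of 39429 probes, 27508 were named through RefSeq accessions. With R 4.3.3 and limma 3.58.1 (data.table, version 1.17.8, statmod 1.5.0), the model had 1 mean for each group over 24 arrays (18 residual and 3.06 prior degrees of freedom), giving 12 comparisons, each adjusted by Benjamini-Hochberg over all genes, 2-sided, and an F test. Tables and plots used pandas 2.3.3, numpy 2.4.6 and matplotlib 3.10.9. Values were given in every array for members that passed any test, filled to 12 members by the smallest F test p; in the lists of other pathway genes, up to 4 that passed were named, and Rela. Values of other members are given as examples of their role. Shares over all genes of counts set by set were added after the data were seen. The members and lists were chosen with earlier results of these data known.

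Alternatives were normexp correction (offset 50), quantile normalization, the 75th percentile over detected probes, no filter, only probes detected on all 24 arrays, the series table, slide or set of sample numbers as a block, a fit of just the 2 groups in question, averaged probes per gene, each probe taken singly, a trended robust prior, the 3 fragment arrays numbered 4 left out, and each array left out. Added after the data were seen were the test of the 4 sets and the fit with both the set block and the 3 arrays left out. Replicate numbers follow sample order. Tested on simulated data for WT minus VOID (14988 genes), the fit recovered 8 of 67 changes of 0.5, 29 of 67 of 1 and 60 of 66 of 2 on the log2 scale, with 4 of 14788 false calls. The simulated noise was independent between genes and arrays, with no set differences and no arrays that went against their labels. These rates therefore need not hold for the real arrays. The number of arrays limits the precision.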

Additional observations from a re-analysis of the deposited data

Results flagged for a closer look

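Within groups of 4 arrays, 12 genes in 6 groups gave 72 checks for an array far from the others (Dixon's test), and 6 passed; chance gives about 1 in 20. Of the 6, 3 were fragment arrays numbered 4: Idi1 in replicate 4 of both fragments at 1.99, Me1 in replicate 4 of p1-361 at 0.421 and Me1 in replicate 4 of p363-549 at 0.713. The other 3 were arrays of the third set of sample numbers: Idi1 in VOID replicate 3 at 2.85, Me1 in VOID replicate 3 at 1.74 and Nsdhl in p1-361 replicate 3 at 0.243.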

How the results depend on the processing

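No paired analysis was possible by replicate number, because the labels number the samples in 1 run and give none. Instead the set of 6 consecutive sample numbers served as a block and to set arrays of 1 set against each other. Shares in brackets are those of all genes called in the same fit. For the both-fragment group relative to VOID, 3 members were called, 1 after normexp correction, 7 with the set block (16.1%), 5 without the 3 fragment arrays numbered 4 (9.73%) and 19 with both of these changes (33.6%); leaving out 1 array gave 1 to 4. Relative to WT the call of 1 became 0 after normexp correction, with no filter, with slide as a fixed block and with only the arrays compared, 4 without the 3 arrays (5.7%) and 14 with the set block added (31.5%); leaving out 1 array gave 0 to 2. Relative to D361E the 2 calls became 1 after normexp or quantile correction, with the percentile over detected probes, with no filter, with slide as a fixed or random block, with only the arrays compared, with the mean of probes and with every probe alone. They became 8 with the set block (21.6%), 6 without the 3 arrays (10.1%) and 19 with both (40.0%), and leaving out 1 array gave 0 to 5. The F test's 1 call became 3 under the set block (11.1%), 5 without the 3 arrays (10.1%) and 20 with both (40.5%), and 1 to 3 leaving out 1 array.

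Of the comparisons with 0 calls, p363-549 relative to WT stayed at 0 in all alternatives run, and the others gained some. WT relative to VOID had 1 with the set block (1.47%), 1 without the 3 arrays (1.23%) and 3 with both (4.04%). D361E relative to VOID had 1 with only the arrays compared, 2 without the 3 arrays (1.6%) and 3 with the set block added (4.92%). For p1-361 relative to VOID the same settings gave 1, 1 (2.72%) and 5 (8.82%), and leaving out 1 array gave 0 to 1 in each. With the set block and without the 3 arrays, p363-549 relative to VOID had 1 (3.64%), D361E and p1-361 relative to WT 1 each (1.67% and 1.99%), p1-361 relative to p363-549 2 (2.07%), and additivity 14 (32.0%), with 5 without the 3 arrays (10.8%); leaving out 1 array gave 0 in each, and in WT relative to VOID. The set test's 25 calls ran from 22 to 29 over its alternatives, 24 to 29 without 1 array. Over all genes, calls with both fragments relative to VOID ran from 212 to 5115. With both fragments relative to VOID, 23 of the 34 differences kept their sign in all 39 alternatives. The other 11, none of them called, turned in at least 1 (Acat2, Acly, Insig1, Insig2, Msmo1, Mvd, Pmvk, Scap, Srebf1, Stard4 and Tm7sf2), with values after turning from -0.38 to 0.06. The causes of these shifts were not tested.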
